A study of Mus musculus with 12 samples.

Results

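The major urinary proteins (MUPs) and OBP2A are lipocalins, small secreted proteins that fold into a barrel around a pocket for a lipophilic ligand. Of the 54232 genes in the liver count table, 10 were examined here: *Mup1*, *Mup2*, *Mup3*, *Mup7*, *Mup10*, *Mup12*, *Mup17*, *Mup20*, *Mup21* and *Obp2a*. They were chosen by their counts in these WT and LKO livers, so their differences between genotypes are described and not tested. *Mup3*, *Mup20*, *Mup21* and *Obp2a* differ enough in sequence to be counted apart (4 divergent members), whereas *Mup1*, *Mup2*, *Mup7*, *Mup10*, *Mup12* and *Mup17* are 6 near-identical copies between which reads may be shared. The table holds 49 *Mup* genes and pseudogenes in all, 22 of them protein-coding by the GENCODE annotation.

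In mice, MUPs are made in hepatocytes, pass from the blood into the urine and carry volatile pheromones, and they are more abundant in males. Their transcription in male liver depends on the pulsed release of growth hormone, which acts through JAK2 and STAT5B. MUP20, also called darcin, is itself a pheromone that attracts females, and OBP2A belongs to the odorant-binding branch of the lipocalins, better known from the nose.

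Bulk mRNA was sequenced from the livers of male C57Bl/6J littermates of 10 weeks on a chow diet, fasted for 4 h, with 1 library per mouse. The 6 WT mice were *Marchf6* fl/fl AlbuminCre- and the 6 LKO mice were *Marchf6* fl/fl AlbuminCre+, so both groups carry the floxed allele of the E3 ubiquitin ligase gene *Marchf6*. Cre was driven by the albumin promoter, active in hepatocytes, and other liver cells keep the gene. Samples are whole liver, in which fewer cells of a type and less RNA per cell cannot be told apart.

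Between 14860414 and 22111926 reads were counted on genes per liver, and values are given as normalized CPM (read counts scaled to a common library size), with scaling by the trimmed mean of M-values. A gene entered the edgeR quasi-likelihood test if 6 livers or more each had over 2 of its reads, and 75 of the 17509 such genes (0.428%) had a Benjamini-Hochberg adjusted p under 0.05. Of these 27 (0.154%) were lower and 48 (0.274%) higher in LKO livers. The median log2 fold change of all genes tested was 0.00016. *Marchf6*, listed as *March6*, had 241 ± 8.36 CPM (SD, n = 6) in WT and 226 ± 16.5 in LKO livers, with an edgeR adjusted p of 0.585; reads counted over the whole gene do not measure the deleted exon alone. In the library numbering every WT liver comes before every LKO liver, so the order of the libraries and the genotype cannot be told apart. Of 9 hepatocyte markers tested 8 were lower in LKO livers (*Alb*, log2 fold change -0.18, and *Apoa1*, -0.02, were the most abundant), and their summed level was 108773 to 128752 CPM in WT and 98395 to 112347 CPM in LKO livers. All 10 Kupffer cell markers (*Clec4f*, 0.39, and *Cd5l*, 0.49) and all 7 stellate cell markers (*Dcn*, 0.24, and *Reln*, 0.16) were higher. So were 7 of 8 endothelial markers (*Stab2*, 0.04, among them), while *Kdr* was lower at -0.00041. Of 6 bile duct markers 4 were higher (*Spp1*, 0.35, among them), while *Sox9* was lower at -0.62. Of 6 B cell markers 5 were higher (*Pax5*, 0.51, among them). None of these markers passed edgeR's adjusted p of 0.05 except *Ighm*, the IgM heavy chain gene, which fell from 18.5 to 5.40 CPM (adjusted p = 4.06e-06). The part of these cell markers in the results on lipocalins was not tested.

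The near-identical copies are shown first by sequence, because it limits what their counts can mean. The stretch below is the first 60 coding bases of *Mup7*, which encode its secretion signal (chr4:60070241-60070300, GRCm38, minus strand, in 1 coding exon), with the same bases of the other 5 copies. Among windows of this length within 1 exon it has the most differing positions between these copies, and capitals mark bases that differ from *Mup7*.
*Mup7*: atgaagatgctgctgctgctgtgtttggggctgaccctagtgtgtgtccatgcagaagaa
*Mup1*: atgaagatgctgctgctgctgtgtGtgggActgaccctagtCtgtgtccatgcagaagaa
*Mup2*: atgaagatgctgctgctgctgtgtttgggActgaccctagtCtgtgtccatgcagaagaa
*Mup10*: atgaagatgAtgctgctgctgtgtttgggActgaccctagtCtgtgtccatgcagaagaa
*Mup12*: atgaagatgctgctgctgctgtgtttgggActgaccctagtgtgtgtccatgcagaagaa
*Mup17*: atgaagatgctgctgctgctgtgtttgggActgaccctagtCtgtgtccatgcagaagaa
In the whole stretch 4 of the 60 positions differ in any copy. Over the complete coding sequences of 543 bases, the 15 pairs of these 6 genes were 98.7% to 99.6% identical, with a median of 98.9%. All 6 lie on the minus strand of chromosome 4, from *Mup7* (chr4:60066469-60070475) to *Mup17* (chr4:61591929-61595871).

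The divergent members stand further apart, as coding bases 121 to 180 of *Mup7* and the aligned bases of the others show (chr4:60069783-60069842 in *Mup7*; chr4:62053530-62053589 in *Mup20*; chr4:62086850-62086909 in *Mup3*; chr4:62150245-62150304 in *Mup21*; chr2:25700752-25700811 in *Obp2a*, GRCm38). The window was chosen for its differences among the *Mup* genes, and capitals again mark bases that differ from *Mup7*.
*Mup7*: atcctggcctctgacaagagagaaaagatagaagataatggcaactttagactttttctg
*Mup20*: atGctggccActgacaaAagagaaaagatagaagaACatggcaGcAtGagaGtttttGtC
*Mup3*: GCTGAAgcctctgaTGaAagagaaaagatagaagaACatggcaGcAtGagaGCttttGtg
*Mup21*: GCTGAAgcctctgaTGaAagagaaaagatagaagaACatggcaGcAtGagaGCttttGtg
*Obp2a*: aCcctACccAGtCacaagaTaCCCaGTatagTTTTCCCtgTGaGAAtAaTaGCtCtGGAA
*Mup3* and *Mup21* are the same over this window, and their coding sequences were 94.8% identical. Against the 6 near-identical copies the coding identity was 90.1% to 91.0% for *Mup20*, 83.7% to 84.6% for *Mup21*, 82.4% to 83.3% for *Mup3* and 49.2% to 49.8% for *Obp2a*. *Mup3* (chr4:62083476-62087342), *Mup20* (chr4:62050234-62054158) and *Mup21* (chr4:62147932-62150863) lie on the minus strand, beyond *Mup17* in the same cluster, and *Obp2a* lies on the plus strand of chromosome 2 (chr2:25700043-25703326).

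To see how many reads could be placed on 1 gene only, every stretch of 50 bases of each gene's transcript was looked up in all GENCODE transcripts. Of these stretches 0% of *Mup2*, 3.64% of *Mup7*, 5.24% of *Mup1*, 13.8% of *Mup10*, 14.6% of *Mup12* and 21.9% of *Mup17* occurred in no other gene. In the divergent members the share was 49.5% for *Mup20*, 80.7% for *Mup21*, 84.4% for *Mup3* and 88.3% for *Obp2a*. The read length and the treatment of reads with several matches are not given in the sources used here, so 50 bases is a stand-in. With stretches of 100 bases the share was 12.9% for *Mup7*, 40.6% for *Mup17* and 97.1% for *Mup3*.

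**Figure D1:**
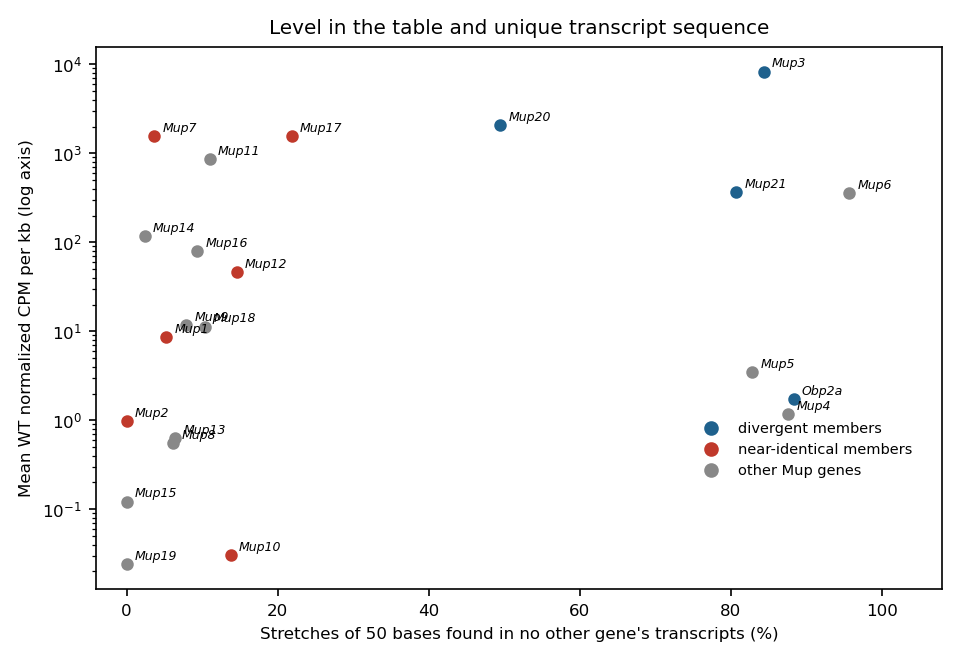
Share of 50-base transcript stretches found in no other gene (x axis, %) against the mean level of the 6 WT livers (y axis, normalized CPM per kb of transcript, log axis) for *Obp2a* and the protein-coding *Mup* genes with reads; each point is 1 gene, blue for divergent members, red for near-identical members and grey for other *Mup* genes. Near-identical members range from *Mup10* at 0.0306 to *Mup7* at 1580 CPM per kb, and genes without a unique stretch lie at the bottom left.

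Across the 22 protein-coding *Mup* genes, 4 had no unique stretch of 50 bases, and none of these had more than 23 reads in any liver. *Mup7*, with a unique share of 3.64%, nevertheless had 6275 to 30434 reads. How far the level of a single copy follows its share of unique sequence was not tested.

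Per kb of transcript, *Mup3* was the most abundant member in WT livers at 8283 ± 385 CPM per kb (SD, n = 6). *Mup20* (2057 ± 609), *Mup7* (1580 ± 508) and *Mup17* (1558 ± 542 CPM per kb) followed and differed from each other by less than their SDs. *Mup21* had 368 ± 104, *Mup12* 46.6 ± 13.1 and *Mup1* 8.58 ± 3.11 CPM per kb. *Obp2a* (1.73 ± 0.514) and *Mup2* (0.985 ± 0.451 CPM per kb) were near each other, with means apart by less than the sum of their SDs, and *Mup10* was last at 0.0306 ± 0.0523. In LKO livers *Mup3* still led at 6350 ± 1029 CPM per kb, followed by *Mup17* (1221 ± 441), *Mup20* (1172 ± 313) and *Mup7* (813 ± 336), whose spreads overlapped, then *Mup21* (283 ± 64.8), *Mup12* (13.5 ± 5.45) and *Mup1* (2.56 ± 1.05 CPM per kb). *Mup2* (0.844 ± 0.260) there stood above *Obp2a* (0.260 ± 0.245 CPM per kb), and *Mup10* (0.124 ± 0.0390) was again last. These orders depend on how shared reads were counted. Per kb of 50-base stretches found in no other gene, *Mup7* led in WT livers at 45762 CPM. *Mup3* (10330), *Mup17* (7520) and *Mup20* (4388) came after it. The same 4 genes had 23562, 7919, 5893 and 2499 CPM in LKO livers. Which measure is nearer the true order was not tested.

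All 9 members that passed the filter on low counts were lower in LKO livers on average, against 50% of all genes tested, and 3 of them (*Mup1*, *Mup12* and *Obp2a*) had an adjusted p under 0.05, as had 0.428% of all genes tested (0.154% lower). Since the list was made with these values in view, the counts are a description and carry no weight beyond it. For 3 of the 10 members (*Mup3*, *Mup12* and *Obp2a*) every LKO liver was below every WT liver, as for 0.56% of all genes tested (1.26% with no overlap in either direction). Median log2 fold change was -0.81 over the 9 members.

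**Figure D2:**
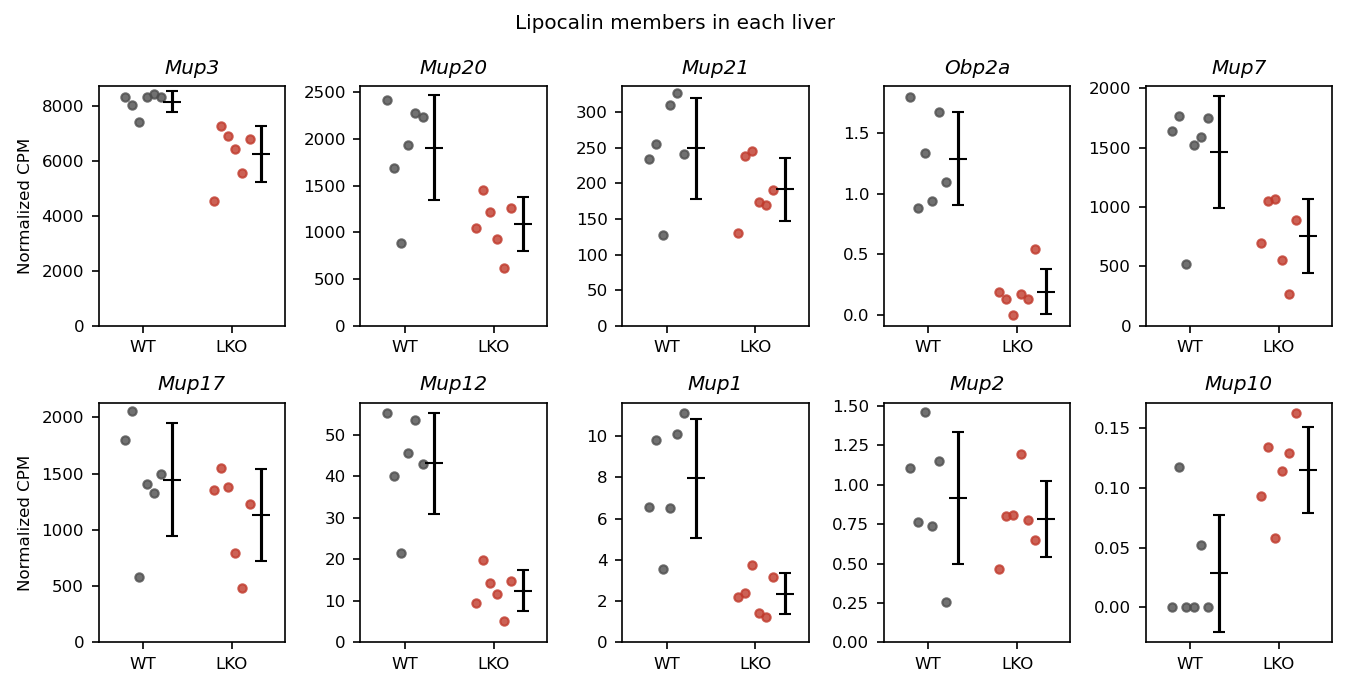
Normalized CPM (y axis, linear, 1 scale per gene) of each member in the 6 WT (grey) and 6 LKO (red) livers; each point is 1 liver, and the bar beside each group gives the mean and SD. The groups are apart for *Mup3*, *Mup12* and *Obp2a*, and overlap for the other 7 genes, where the low grey point of *Mup7*, *Mup17*, *Mup20* and *Mup21* is WT replicate 3.

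*Mup3* was the member with the most reads, 97903 to 161153 per liver. WT replicates 1 to 6 had 8322, 8053, 7423, 8325, 8437 and 8341 normalized CPM. The values of LKO replicates 1 to 6 were 4554, 7267, 6891, 6435, 5556 and 6785. The WT livers lay within a narrow range, the LKO livers spread more widely below it, and LKO replicate 1 was the lowest. The mean was 8150 ± 379 CPM in WT and 6248 ± 1012 in LKO livers (SD, n = 6 each), which gave a log2 fold change of -0.38 (SE 0.103) with a 95% confidence interval of -0.59 to -0.18. Its edgeR adjusted p was 0.132, and the interval does not allow for the choice of the members by these counts. All 6 LKO livers were under the WT mean, and the count of *Mup3* is the member count least open to shared reads among the *Mup* members.

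*Mup20*, the gene of darcin, had normalized CPM of 2420, 1692, 887, 1935, 2278 and 2239 in WT replicates 1 to 6. In LKO replicates 1 to 6 it had 1048, 1450, 1218, 927, 623 and 1258. WT replicate 3 fell inside the LKO range, and the other 5 WT livers were above all LKO livers. Means were 1909 ± 565 and 1087 ± 290 CPM (SD, n = 6 each), and the log2 fold change was -0.81 (SE 0.225, 95% confidence interval -1.25 to -0.37). With all livers the edgeR adjusted p of *Mup20* was 0.146. Without WT replicate 3 the log2 fold change was -0.96.

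*Mup21*, whose coding sequence is closest to that of *Mup3*, had CPM of 234, 255, 127, 310, 326 and 241 in WT replicates 1 to 6 and of 131, 238, 246, 174, 169 and 191 in LKO replicates 1 to 6. The groups overlapped, with the lowest liver in WT and 3 WT livers above all LKO livers. The log2 fold change was -0.38 (SE 0.197), and its 95% confidence interval, -0.76 to 0.0072, took in 0.

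*Obp2a* was scarce but gave the largest difference among the members. It had 26, 15, 21, 14, 32 and 17 reads in WT replicates 1 to 6 and 4, 2, 0, 3, 3 and 10 reads in LKO replicates 1 to 6. Every WT liver was above every LKO liver, 4 LKO livers had 1 to 4 reads, and the 0 of LKO replicate 3 allows up to 3 reads. Normalized CPM averaged 1.29 ± 0.383 in WT and 0.193 ± 0.182 in LKO livers (SD, n = 6 each). The log2 fold change was -2.68 (SE 0.429, 95% confidence interval -3.53 to -1.84) and went from -3.28 without LKO replicate 6, the highest LKO liver, to -2.44 without LKO replicate 3. At this depth the size of the difference is known only to within such a range, because the LKO values rest on 22 reads in all.

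Among the near-identical copies, 2 genes held nearly all reads. *Mup7* had 1637, 1762, 522, 1525, 1593 and 1747 CPM in WT replicates 1 to 6 and 694, 1052, 1069, 551, 270 and 887 CPM in LKO replicates 1 to 6. Apart from WT replicate 3, which lay within the LKO range at the low end, all WT livers exceeded all LKO livers. The means were 1464 ± 471 and 754 ± 312 CPM, with a log2 fold change of -0.96 (SE 0.316, edgeR adjusted p = 0.233).

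*Mup17* had 1799, 2052, 579, 1407, 1329 and 1498 CPM in WT replicates 1 to 6 and 1352, 1552, 1381, 792, 480 and 1231 CPM in LKO replicates 1 to 6. The groups overlapped over most of their range. The log2 fold change was -0.35 (SE 0.288, 95% confidence interval -0.92 to 0.21), from means of 1444 ± 502 and 1132 ± 409 CPM. *Mup7* and *Mup17* thus had like normalized CPM in WT livers and different fold changes, but reads that match both cannot be assigned by sequence.

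*Mup12* had 55.3, 40.0, 21.5, 45.5, 53.5 and 43.0 CPM in WT replicates 1 to 6 and 9.40, 19.8, 14.3, 11.7, 5.08 and 14.7 CPM in LKO replicates 1 to 6. No LKO liver reached the lowest WT liver, again replicate 3, and the log2 fold change was -1.80 (SE 0.272). *Mup1* had 6.56, 9.83, 3.56, 6.53, 10.1 and 11.1 CPM in WT replicates 1 to 6 and 2.19, 2.41, 3.75, 1.42, 1.25 and 3.19 CPM in LKO replicates 1 to 6. Only WT replicate 3 and LKO replicate 3 crossed, and the log2 fold change was -1.76 (SE 0.296). These were the largest differences of the near-identical set, at low read numbers (118 to 1021 reads for *Mup12* and 25 to 193 for *Mup1*).

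*Mup2*, without a unique stretch of 50 bases, had 4 to 23 reads per liver. Its level was 0.913 ± 0.418 CPM in WT and 0.783 ± 0.241 CPM in LKO livers, and the log2 fold change was -0.24 (SE 0.327, 95% confidence interval -0.88 to 0.40). *Mup10* had 0 to 2 reads in WT and 1 to 3 reads in LKO livers, at or under 3 reads throughout, and no fold is given.

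Summing the 6 near-identical copies leaves aside how counted reads were divided among them, though not the question of reads shared with other *Mup* genes. If reads with several matches were not counted, the sum does not recover them. The sum was 3499, 3865, 1127, 2984, 2987 and 3300 CPM in WT replicates 1 to 6 and 2059, 2628, 2470, 1358, 757 and 2136 CPM in LKO replicates 1 to 6. With WT replicate 3 aside, WT livers were above all LKO livers. Means were 2960 ± 958 and 1901 ± 712 CPM (SD, n = 6 each), and the log2 fold change of the summed counts was -0.64, with -0.81 without WT replicate 3 and -0.47 without LKO replicate 5.

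**Figure D3:**
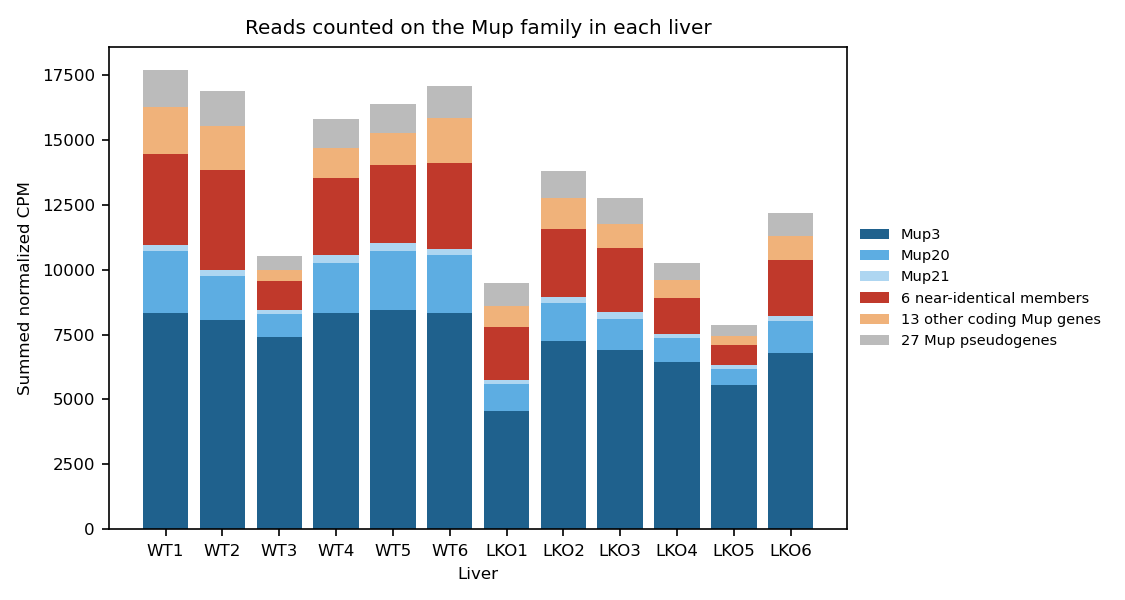
Summed normalized CPM (y axis, from 0) of the *Mup* genes and pseudogenes in each of the 12 livers (x axis), stacked by *Mup3*, *Mup20*, *Mup21*, the 6 near-identical members, 13 other coding *Mup* genes and 27 pseudogenes. *Mup3* is the largest block in every liver, and WT3 (10522 CPM) and LKO5 (7890 CPM) are the lowest of their groups, with most of the loss in WT3 outside *Mup3*.

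All 49 *Mup* genes and pseudogenes together took 1.58% to 1.75% of the reads of WT livers, except 1.00% in WT replicate 3, and 0.83% to 1.35% of the reads of LKO livers. The summed level was 15735 ± 2634 CPM in WT and 11068 ± 2237 CPM in LKO livers, so that the log2 fold change was -0.51. *Mup3* held 53.0% ± 8.86 of the family's reads in WT and 57.2% ± 8.07 in LKO livers, *Mup7* 9.04% ± 2.04 and 6.56% ± 1.83, and *Mup17* 8.93% ± 2.20 and 10.0% ± 2.85 (SD, n = 6). The make-up of the family thus differed between groups by less than its spread for *Mup3* and *Mup17*, but by more than either SD for *Mup7*. The small shares of *Mup12* did not overlap, at 0.205% to 0.326% in WT and 0.0643% to 0.144% in LKO livers. Nor did those of *Mup1*, at 0.0338% to 0.0652% and 0.0139% to 0.0294%.

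The other *Mup* genes are those left after the members were chosen by their counts, so they are not an unselected set. Many also share sequence with members, with unique 50-base shares of 11.0% for *Mup11*, 9.34% for *Mup16* and 2.40% for *Mup14*. Their counts are thus not independent of the members. Of the 40 other *Mup* genes and pseudogenes, 24 passed the filter and 11 had 0 reads in all livers. In LKO livers 17 of the 24 were lower, against 50% of all genes tested. Their median log2 fold change was -0.50 (range -1.24 to 0.96). None had an adjusted p under 0.05 with edgeR, limma voom or DESeq2. With edgeR 8 had an unadjusted p under 0.05, as had 2047 of all 17509 genes tested. Of 10 protein-coding genes tested 8 were lower, namely *Mup8* (-1.24), *Mup16* (-1.04), *Mup13* (-0.92), *Mup11* (-0.86), *Mup14* (-0.85), *Mup4* (-0.67), *Mup9* (-0.51) and *Mup6* (-0.30), while *Mup5* (0.13) and *Mup18* (0.15) were not. *Mup11* was the most abundant of these, at 797 ± 360 CPM in WT and 438 ± 223 CPM in LKO livers. *Mup6*, with 95.7% of its stretches unique, had 329 ± 90.9 and 266 ± 83.0 CPM. Reads per liver were few for *Mup8* (2 to 12), *Mup13* (4 to 17) and *Mup4* (7 to 23), with 41 to 83 for *Mup5* and 42 to 370 for *Mup18*.

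Of 14 pseudogenes tested 9 were lower, and 1 of them was abundant. *Mup-ps22*, a pseudogene of 243 bases on chromosome 11, had 1004 ± 286 CPM in WT and 723 ± 206 CPM in LKO livers (log2 fold change -0.47, SE 0.229, edgeR adjusted p = 0.445). Its sequence was 90.1% identical to *Mup20* and 92.8% of its 50-base stretches were found in no other transcript. On the log2 scale, also lower were *Mup-ps13* (-0.49), *Mup-ps20* (-0.89), *Mup-ps7* (-0.73), *Mup-ps19* (-0.70), *Mup-ps6* (-0.66), *Mup-ps21* (-0.61), *Mup-ps12* (-0.06) and *Mup-ps18* (-0.02). Higher were *Mup-ps17* (0.06), *Mup-ps23* (0.46), *Mup-ps15* (0.47), *Mup-ps16* (0.60) and *Mup-ps14* (0.96). All of these, lower or higher, had at most 50 reads in any liver, except *Mup-ps13* with 978 to 2642.

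**Figure D4:**
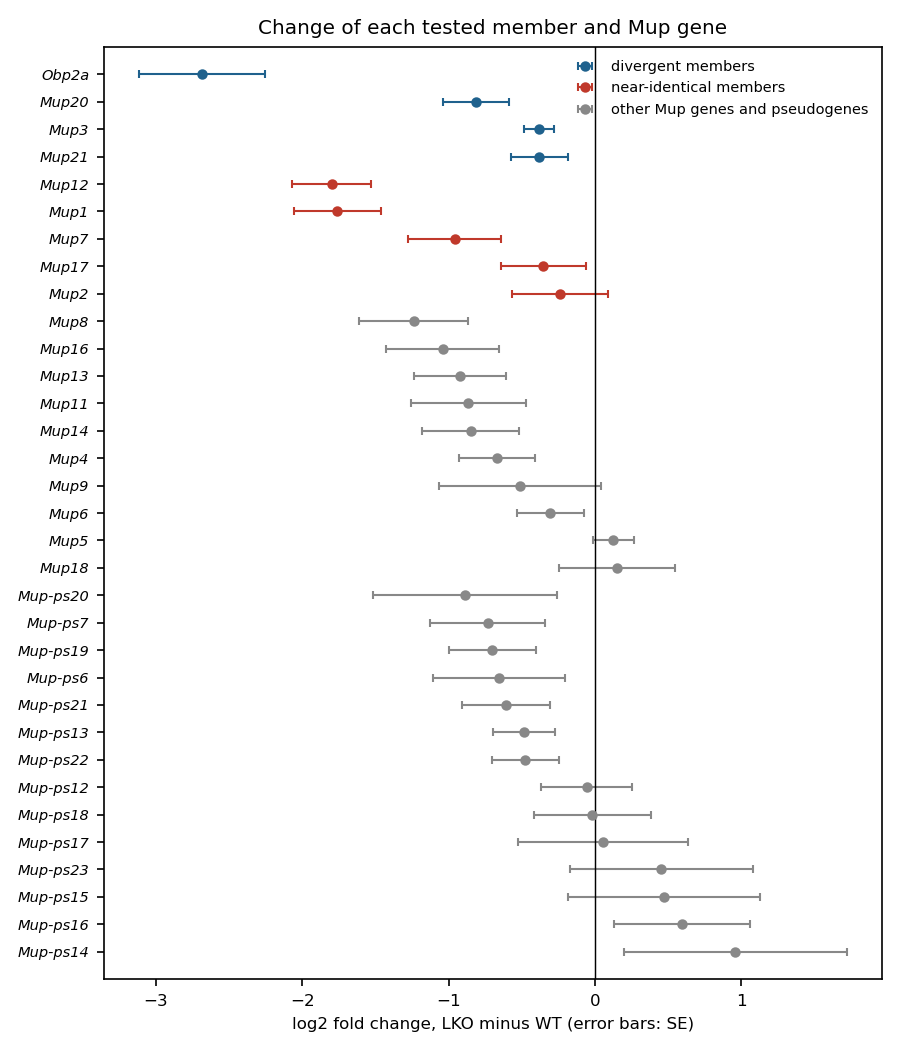
Log2 fold change, LKO minus WT (x axis, error bars SE), of the 9 members and 24 other *Mup* genes and pseudogenes that were tested; each point is 1 gene, blue for divergent members, red for near-identical members and grey for the rest. All 9 members and 17 of the 24 others lie left of 0, with *Obp2a* at -2.68 furthest out.

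The 6 relations among the near-identical sum, *Mup20*, *Mup3* and *Mup21* were examined across the 12 livers as deviations of log2 CPM from the genotype mean, which leaves out the difference between genotypes. Each p comes from a two-sided permutation test with 100000 shuffles of the livers within genotype, adjusted over the 6 relations. The near-identical sum varied with *Mup20* (r = 0.92, p = 0.00243, adjusted p = 0.00729; rho = 0.69, p = 0.0194, adjusted p = 0.0581), with r = 0.88 within WT and 0.97 within LKO livers. After WT replicate 3 and LKO replicate 5, the most extreme livers, were left out, r was 0.53, so much of the relation rests on those livers.

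*Mup3* varied with *Mup21* (r = 0.70, p = 0.00021, adjusted p = 0.00126; rho = 0.66, p = 0.0161, adjusted p = 0.0581), with r = 0.92 within WT and 0.91 within LKO livers and r = 0.66 without LKO replicates 1 and 2. Those LKO livers were the most extreme for *Mup3*, and WT replicate 3 was kept here. Both genes were lowest in WT replicate 3 among the WT livers, so r within WT rests in part on it. For the near-identical sum and *Mup3* the values were r = 0.41 (p = 0.231, adjusted p = 0.231) and rho = 0.53 (p = 0.106, adjusted p = 0.106), with r = 0.86 within WT and 0.37 within LKO livers and r = 0.18 without WT replicate 3 and LKO replicate 5. The other relations had r = 0.52 (*Mup20* with *Mup3*, p = 0.0516, rho = 0.58, p = 0.0420), 0.65 (the sum with *Mup21*, p = 0.0450, rho = 0.53, p = 0.0861) and 0.72 (*Mup20* with *Mup21*, p = 0.0288, rho = 0.59, p = 0.0584), with adjusted p of 0.0576 to 0.103 over both measures. Within WT livers these 3 had r = 0.98, 0.83 and 0.84, and within LKO livers 0.52, 0.43 and 0.52. They became r = 0.46, 0.26 and 0.42 without WT replicate 3 and LKO replicate 5. Differences between these relations were not tested. Genes with shared reads are not independent measures.

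The genes most like each pattern were then sought among 12757 non-*Mup* genes with a mean of at least 1 CPM, by Pearson r of the same deviations over 12 livers. For *Mup20* they were *Selenbp2* (r = 0.95), *Cyp7b1* (0.95), which encodes an oxysterol hydroxylase, and *Serpina1e* (0.93), of the alpha-1-antitrypsin family. For the near-identical sum they were *Serpina1e* (0.97), *Moxd1* (0.96) and *Selenbp2* (0.95). Without WT replicate 3 and LKO replicate 5 these values were 0.73, 0.67 and 0.68 for *Mup20* and 0.81, 0.76 and 0.56 for the sum. *Serpina1e* and *Selenbp2* have close paralogs, so their own counts are uncertain. How high an r the best of 12757 genes would reach by chance was not tested.

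*Selenbp2* had 730, 596, 111, 619, 728 and 580 CPM in WT replicates 1 to 6 and 150, 234, 247, 161, 43.4 and 193 CPM in LKO replicates 1 to 6. Like *Mup20*, it was low in WT replicate 3 and lowest in LKO replicate 5, a likeness for which it was chosen. Its log2 fold change was -1.71 with an edgeR adjusted p of 0.0893, and those of *Cyp7b1* and *Serpina1e* were -1.01 (adjusted p = 0.182) and -0.88 (adjusted p = 0.362). For *Obp2a* the nearest genes were *Zfp446* (r = 0.92), *1700048O20Rik* (0.89) and *Tank* (0.84), which rests on counts of 0 to 32 reads.

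**Figure D5:**
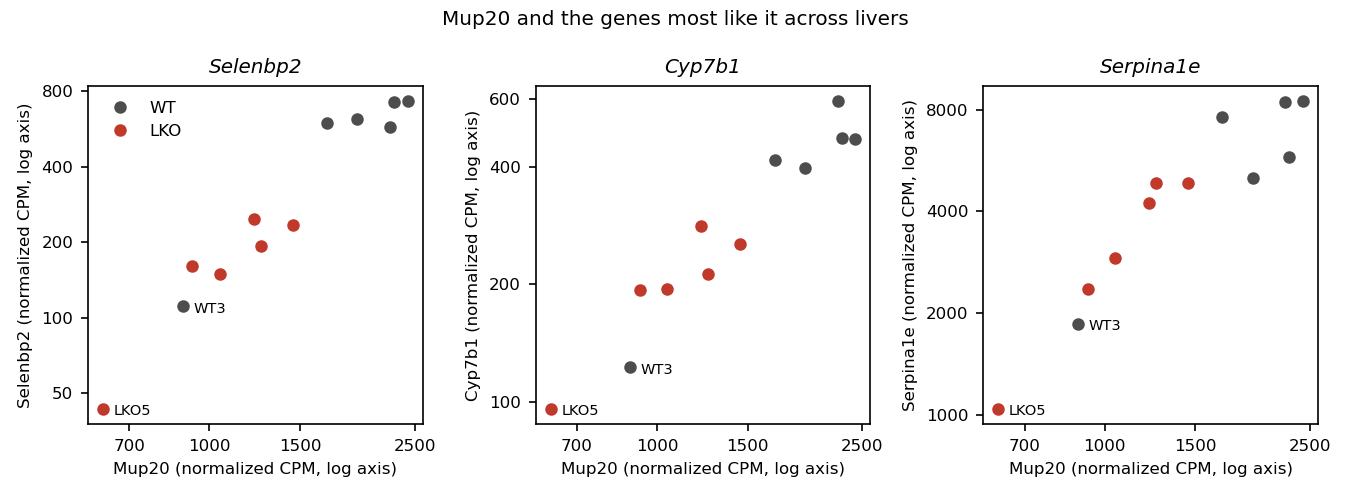
*Mup20* (x axis) against *Selenbp2*, *Cyp7b1* and *Serpina1e* (y axes), all in normalized CPM on log axes; each point is 1 liver, WT grey and LKO red. WT3, at 887 CPM of *Mup20*, lies among the LKO livers in all 3 plots, and LKO5, at 623 CPM, is the lowest point.

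*Selenbp2*, *Cyp7b1* and *Serpina1e* belong to a list of 15 male-biased liver genes, from which *Mup* genes were left out. The list was drawn up with earlier results of these data known, so their place in it carries no weight. Of the 15, 12 were lower and 3 higher in LKO livers, where 50% of all genes tested were lower. The median change was -0.30 on the log2 scale. With edgeR 8 had an unadjusted p under 0.05, as had 2047 of all 17509 genes tested. An adjusted p under 0.05 was found for 3, and for 0.428% of all genes tested. *Susd4* fell from 34.0 ± 6.78 to 17.0 ± 4.64 CPM (adjusted p = 0.0270), whereas *Cyp4a12a* rose from 266 ± 36.6 to 401 ± 38.2 CPM (0.59, adjusted p = 0.00999) and *Cyp4a12b* from 111 ± 25.8 to 187 ± 13.7 CPM (0.75, adjusted p = 0.0121), by edgeR. The Cyp4a12 genes encode fatty acid hydroxylases and are close copies of each other, so their reads may be shared. *Serpina1e* and *Cyp2d9* (-0.30, adjusted p = 0.182) were the most abundant of the list. *Susd4* did not pass with the replicate number as a block or in 7 of the 12 fits that left out 1 library, namely WT replicates 1, 4, 5 and 6 and LKO replicates 1, 2 and 6. Without WT replicate 3, 6 genes of the list passed: *Susd4*, *Cyp7b1*, *Ugt2b38* and *Selenbp2* lower, *Cyp4a12a* and *Cyp4a12b* higher. In that fit 132 of all 17322 genes tested passed.

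Of 16 female-biased genes only 7 passed the filter, and 5 of them were higher in LKO livers, with a median log2 fold change of 0.66. None passed edgeR's adjusted p of 0.05, with 2 at an unadjusted p under 0.05, as were 2047 of all 17509 genes tested. *Cyp17a1*, a steroid hydroxylase gene, had 32.2 ± 18.5 CPM in WT and 69.1 ± 12.95 CPM in LKO livers (1.10, adjusted p = 0.0921). It passed with limma voom (adjusted p = 0.0411), with DESeq2 (adjusted p = 0.00502) and without WT replicate 3 (edgeR adjusted p = 0.00064). *Acot3* was next in level at 4.79 ± 7.98 and 9.85 ± 13.3 CPM.

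WT replicate 3 stood apart too in the summed levels of these lists, which were chosen with earlier results of these data known. The male-biased genes summed to 5286 CPM in WT replicate 3, to 10295 to 14595 CPM in the other WT livers and to 4581 to 9736 CPM in LKO livers. Much of this sum is *Serpina1e*, with 1862 CPM in WT replicate 3 and 5041 to 8475 CPM in the other WT livers. The female-biased genes summed to 106 CPM in WT replicate 3, against 19.97 to 40.1 CPM in the other WT livers and 53.8 to 117 CPM in LKO livers. *Cyp17a1*, with a WT mean of 32.2 CPM, was the most abundant of them. Both sums follow their most abundant genes and do not show that each list moved as a whole. *Mup3* was also lowest in WT replicate 3 among the WT livers, at 7423 CPM against 8053 to 8437 CPM in the others, but remained above all LKO livers. *Obp2a* had 1.33 CPM in WT replicate 3, within the range of the other WT livers. What sets that liver apart was not tested.

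Genes of the growth hormone pathway, which drives *Mup* transcription in males, did not pass the test. Of 12 tested (receptor, kinase, STAT5 factors, feedback inhibitors and targets) 6 were lower and 6 higher, their median being 0.01 on the log2 scale, and none had an adjusted p under 0.05 with edgeR, limma voom or DESeq2. An unadjusted p under 0.05 with edgeR was found for 3, and for 2047 of all 17509 genes tested. *Igf1*, a STAT5B target, had 813 ± 99.1 CPM in WT and 734 ± 118 CPM in LKO livers (-0.15, adjusted p = 0.653), and the receptor gene *Ghr* had 637 ± 78.9 and 529 ± 87.6 CPM (-0.27, adjusted p = 0.373).

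Of 15 hepatic transcription factors 13 were lower and 2 higher, with a median of -0.13, where 50% of all genes tested were lower. Again none had an adjusted p under 0.05 with any of the 3 tools. With edgeR 4 had an unadjusted p under 0.05, as had 2047 of all 17509 genes tested. *Hnf4a*, a master regulator of hepatocyte genes, had 932 ± 165 CPM in WT and 892 ± 128 CPM in LKO livers (-0.06, adjusted p = 0.892), and *Rxra*, the partner of many nuclear receptors, had 620 ± 49.0 and 542 ± 30.0 CPM (-0.20, adjusted p = 0.247).

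Other members of the lipocalin family, several of them made in liver, were listed as well. Of 14 listed 10 passed the filter, all 10 lower, against 50% of all genes tested, with a median log2 fold change of -0.12. No gene had an adjusted p under 0.05 with any of the 3 tools. With edgeR 3 had an unadjusted p under 0.05, as had 2047 of all 17509 genes tested. *Rbp4*, the retinol carrier, had 2497 ± 183 CPM in WT and 2461 ± 158 CPM in LKO livers (-0.02, adjusted p = 0.948), and *Ambp*, the precursor of alpha-1-microglobulin, had 1934 ± 140 and 1838 ± 134 CPM (-0.07, adjusted p = 0.742).

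The region before the transcription start is shown for *Mup17*, *Mup3* and *Obp2a*, 1 of each kind of member, because the 3 genes were lower in mean level in LKO livers but differ in how much of this sequence they share. The 250 bases come from RefSeq on GRCm38.p6, at chr4:61595833-61596082 (minus strand), chr4:62087318-62087567 (minus strand) and chr2:25699824-25700073 (plus strand). Capitals mark the HNF6-type and TATA-type motifs, whose letters are given after the sequences, on either strand.
*Mup17*: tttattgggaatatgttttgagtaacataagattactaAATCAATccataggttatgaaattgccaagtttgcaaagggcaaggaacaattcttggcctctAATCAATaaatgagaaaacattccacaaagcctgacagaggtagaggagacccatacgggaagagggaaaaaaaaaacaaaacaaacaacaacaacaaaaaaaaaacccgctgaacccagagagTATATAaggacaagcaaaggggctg
*Mup3*: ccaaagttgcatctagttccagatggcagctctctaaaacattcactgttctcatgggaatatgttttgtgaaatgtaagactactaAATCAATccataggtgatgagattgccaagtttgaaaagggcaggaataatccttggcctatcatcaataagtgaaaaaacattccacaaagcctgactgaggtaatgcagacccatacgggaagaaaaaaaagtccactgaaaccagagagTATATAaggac
*Obp2a*: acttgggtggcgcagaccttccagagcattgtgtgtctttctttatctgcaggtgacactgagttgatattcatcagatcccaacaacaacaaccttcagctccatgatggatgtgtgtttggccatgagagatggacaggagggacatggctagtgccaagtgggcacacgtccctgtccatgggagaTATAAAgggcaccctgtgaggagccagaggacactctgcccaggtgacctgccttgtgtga
Windows of 300 bases around the start were found for 7 of the 10 members. Over the aligned part, the window of *Mup17* was 98.3% identical to that of *Mup2*, 97.7% to *Mup7*, 94.6% to *Mup10*, 76.9% to *Mup3*, 74.6% to *Mup21* and 46.2% to *Obp2a*.

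AATCAAT, the HNF6-type motif, occurred 2 times in the windows of *Mup2*, *Mup7*, *Mup10* and *Mup17*, once in those of *Mup3* and *Mup21* and not in that of *Obp2a*. It was held by 2.86% of the 32851 promoter windows of the mouse table, and it was chosen after the sequences were read. TATANA, the TATA-type motif, was in 6 of the 7 windows, all but that of *Mup7*, whose annotated start lies further upstream, and in 24.7% of all windows. No window of a member held TTCNNNGAA, the STAT5-type motif (8.30% of all windows), or TTGCNNAA, a C/EBP-type motif (10.8%). These matches describe letters in a short window and say nothing about binding.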

How the data were processed

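Library preparation used a KAPA mRNA HyperPrep kit, and sequencing a HiSeq4000. After quality checks (FastQC 0.11.15, Picard) and trimming (Trimmomatic 0.36), the authors mapped reads to mouse Ensembl 93 (GRCm38.p6) with HISAT2 2.1.0. HTSeq 0.6.1 gave the deposited raw counts, which carry no normalization or filter. Strand setting, overlap mode and read length are not given in the sources used here.

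Gene identifiers were matched to symbols for 54079 of 54232 genes. The study's filter was used: over 2 reads in 6 libraries or more. After TMM scaling, edgeR 4.0.16 (R 4.3.3) was run as a two-sided quasi-likelihood test of genotype alone, with p-values adjusted by Benjamini-Hochberg over all genes. Log2 CPM used a prior count of 0.5, and each SE was derived from a gene's fold change and F statistic. Alternatives were RLE and upper-quartile scaling, scaling without *Mup* genes and *Obp2a*, no filter, at least 10 counts in every library, limma 3.58.1 voom (the study's test), DESeq2 1.42.0, a block for the replicate number, and leaving out each library. In simulated counts, edgeR recovered 91.5% of genes changed by 1 and 100% of those changed by 2 on the log2 scale among 17226 tested, with 4.02% false calls. The simulation gave all genes the same set spread between livers and changed only genes above a minimum mean count. Its rates therefore do not give the recovery for single members, whose spread and read numbers differ.

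The members, gene lists and motifs were chosen with earlier results of these data known. Named were all members, the other *Mup* genes tested, the most alike genes, and of each other list the genes past the threshold and the 2 most abundant. Transcripts and exons came from GENCODE M21 (GRCm38); for each gene the coding transcript that aligned best with the coding sequence of *Mup17* was used. Sequences were aligned with Biopython 1.88. The 95% confidence intervals of fold changes come from the edgeR SE with a normal approximation. They take in the spread between livers but are somewhat narrower than the quasi-likelihood test itself would give. For the members they do not allow for the choice of these genes by the same counts. The floor of 3 reads covers counting error only, since reads carry no molecular identifiers. *Tf*, of the hepatocyte marker list, was not matched by symbol.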

Additional observations from a re-analysis of the deposited data

Results flagged for a closer look

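Each group of 6 livers was searched for a lowest or highest liver whose gap to the next was over 0.625 of the group's range, for the members and the summed *Mup* classes. Of 28 groups searched 6 held such a liver, where chance gives about 1 in 20, and the sums share genes with each other and with *Mup7*. In 5 of the 6 it was WT replicate 3. *Mup7* had 522 CPM there against 1525 to 1762 in the other WT livers. The 6 near-identical members summed to 1127 CPM against 2984 to 3865, and the *Mup* pseudogenes to 536 CPM against 1115 to 1440. All *Mup* genes and pseudogenes summed to 10522 CPM against 15801 to 17709, and to 3099 CPM against 7475 to 9388 without *Mup3*. *Obp2a* was high in LKO replicate 6 at 0.541 CPM (10 reads), against 0 to 0.186 CPM in the other LKO livers.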

How the results depend on the processing

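No fold change of a member or sum changed sign under any of the alternatives run. The number of genes with an adjusted p under 0.05 went from 75 to 114 without a filter and to 350 with DESeq2, and from 38 (without WT replicate 5) to 132 (without WT replicate 3) when 1 library was left out. With DESeq2 5 members passed, *Mup3* and *Mup20* in addition; leaving out 1 library gave 3 to 4, the fourth being *Mup20* without WT replicate 3. With at least 10 counts in every library *Obp2a* and *Mup2* could not be tested either, besides *Mup10*, and 2 members passed. The summed family passed with DESeq2 (log2 fold change -0.51) and without WT replicate 3 (-0.60), and ranged from -0.60 to -0.43 over left-out libraries; the near-identical sum ranged from -0.81 to -0.47 and passed in no fit. Male-biased genes past the threshold numbered 2 to 6 over left-out libraries, 6 without WT replicate 3, and 2 with the replicate block. *Susd4* lost its call with the block and in 7 of the 12 fits without 1 library. Of the female-biased genes, 1 (*Cyp17a1*) passed without a filter, with limma voom and with DESeq2, and 0 to 1 over left-out libraries, the 1 without WT replicate 3. The causes of these differences were not tested.

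With the replicate number as a block 97 genes and the same 3 members passed. Deviations of same-numbered WT and LKO livers correlated at 0.21, 0.28, -0.18, 0.29, 0.10 and 0.21 over 12775 genes, and 1 of 6 WT livers correlated best with its own number, so the numbers were not taken to pair the mice. Counts of 0 to 32 reads limit what *Obp2a*, *Mup2* and *Mup10* can show.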
